A study of Mus musculus with 8 samples.

Results

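The genes described here are 33 genes of the tricarboxylic acid (TCA) cycle and of pyruvate entry into it, taken by symbol from a fixed list, and all 33 were among the 16640 genes of the authors' deposited table. The table compares whole livers of mice aged 1 year, kept on chow. The WT group (4 livers) had intact Huwe1, and the Huwe1_LKO group (4 livers) carried a liver-specific knockout of Huwe1, the gene of a large ubiquitin ligase. The driver of the deletion, the strain and the sex of the mice are not stated in the labels used here. The table gives 1 normalized expression value per gene and group, so each level below is the authors' group value, with no spread between livers of its own. The error given with a log2 fold change is the standard error (SE) that the deposited p implies, and each 95% interval is computed from it.

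The TCA cycle oxidizes the acetyl group of acetyl-CoA in the mitochondrial matrix and passes the electrons to the respiratory chain. Pyruvate enters the matrix through a carrier and is then either decarboxylated to acetyl-CoA by the pyruvate dehydrogenase complex or carboxylated to oxaloacetate by pyruvate carboxylase. Liver uses the cycle as a source of intermediates as well as of energy: oxaloacetate feeds gluconeogenesis, and citrate leaves the matrix to supply cytosolic acetyl-CoA for lipid synthesis. Several steps have a separate cytosolic enzyme with its own gene.

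At an adjusted p under 0.05, 13 of the 33 genes were lower in Huwe1_LKO by the authors' deposited table and 0 were higher, and of the 5 genes with a value above 0 none had an unadjusted p under 0.05. The 13 were Cs, Aco1, Idh1, Dlst, Suclg1, Sdha, Mdh1, Pdha1, Dlat, Pdk1, Pdk4, Pcx and Mpc1. They make 39.4% of the list, where 9.97% of all listed genes were called in either direction, 5.56% as lower and 4.41% as higher. These genes are abundant, and among all 2196 genes with a mean value of 1000 or more, 15.5% were called lower, against 11 of the 26 members at that level. Over all 33, the median log2 fold change in the deposited table was -0.34, and 28 lay below 0. The median was 0.02 over all genes and -0.08 over all genes with a mean value of 1000 or more. Summed over the 33 genes, the deposited level went from 96073 in WT to 74806 in Huwe1_LKO, or from 0.554% to 0.427% of the total of all genes. The falls were moderate, since 11 of the 13 genes kept between 54.9% and 73.5% of their WT level.

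**Figure D1:**
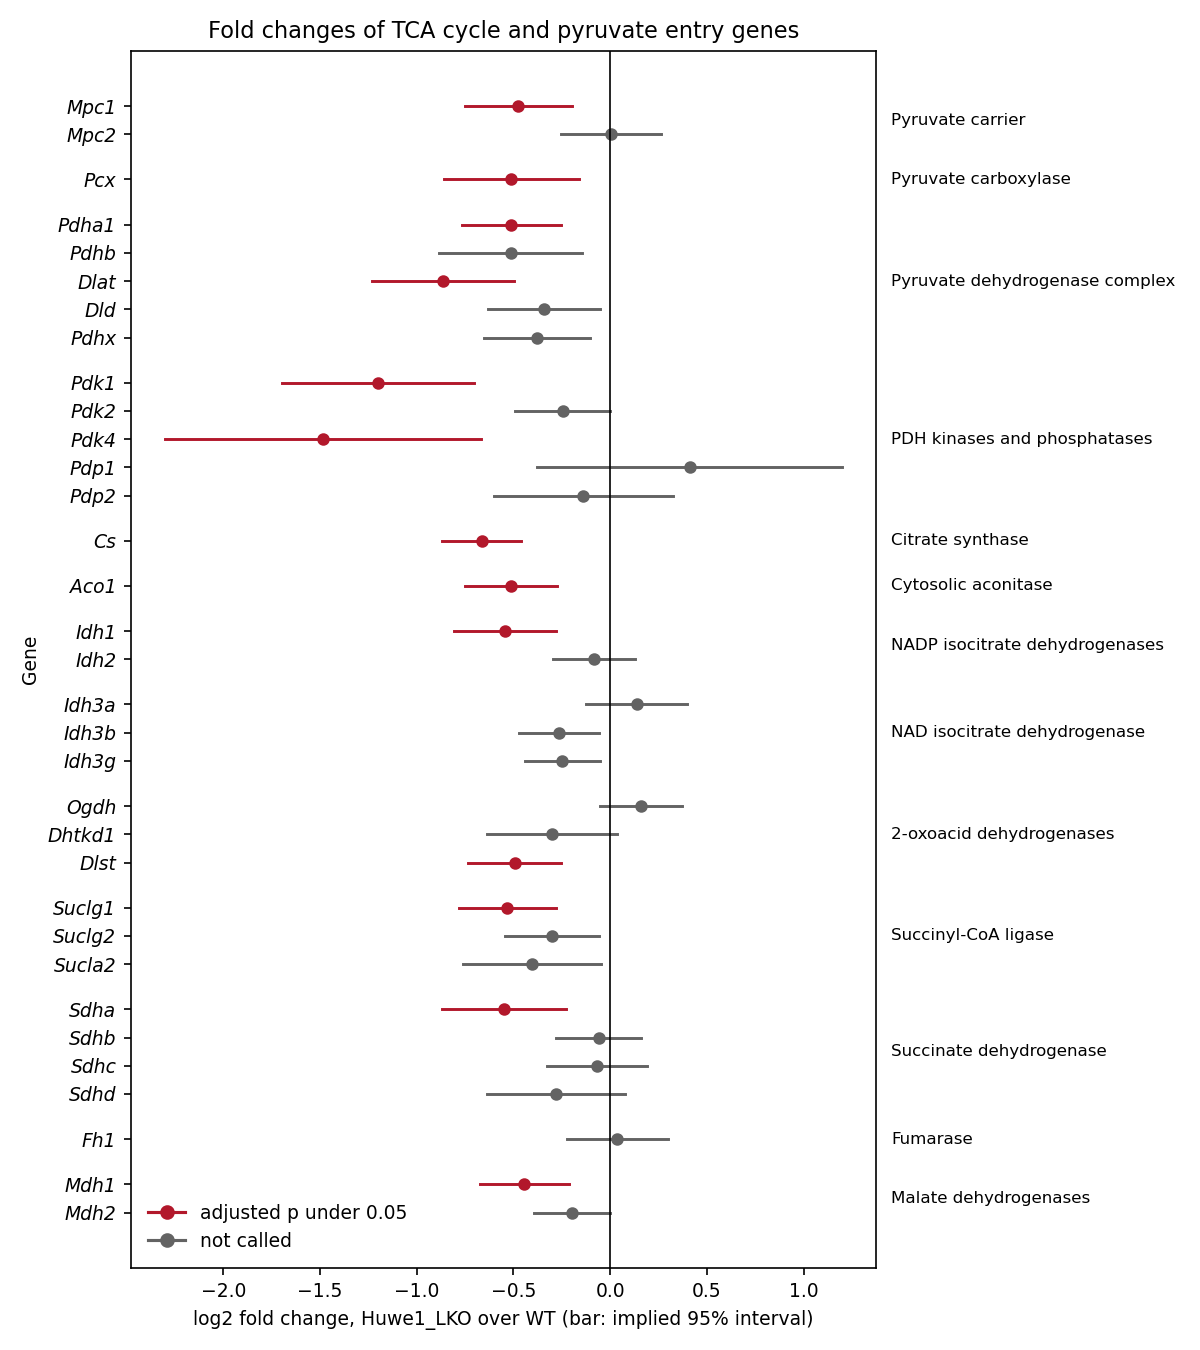
Points give the log2 fold change of Huwe1_LKO over WT for each of the 33 genes (horizontal axis), in rows by enzyme, and bars give the implied 95% interval. Red marks the 13 genes with an adjusted p under 0.05, all left of 0; Pdk4 and Pdk1 lie farthest left, at -1.48 and -1.20.

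**Figure D2:**
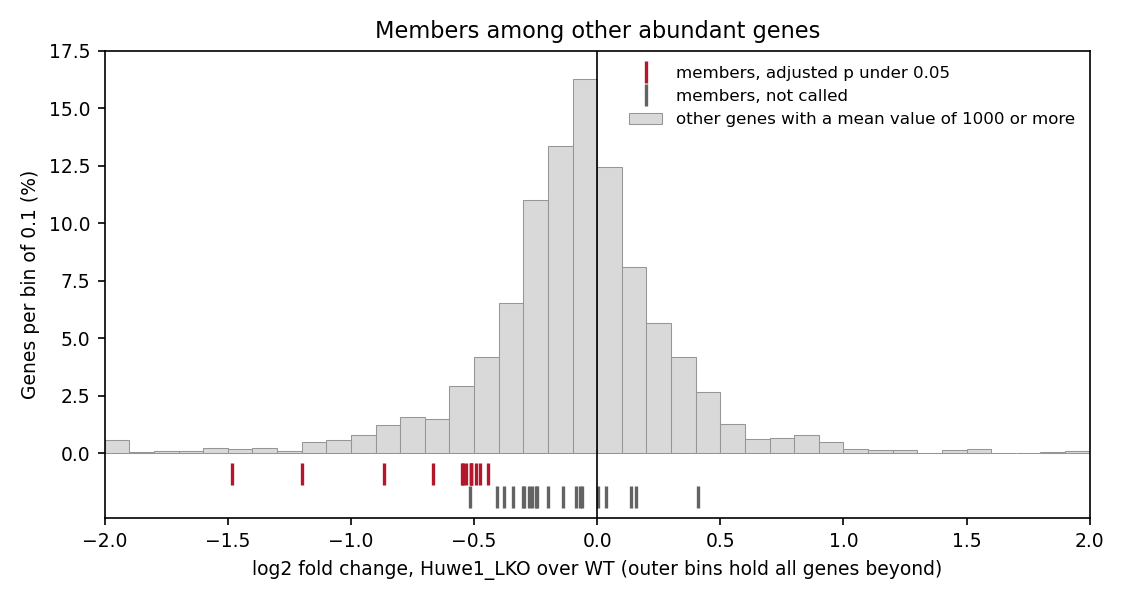
Bars give the share of other genes with a mean value of 1000 or more in each bin of log2 fold change (width 0.1), and ticks under the axis mark the 33 members, 7 of which have a mean value under 1000. Most members lie left of 0, with a median of -0.34 against -0.08 for all genes at that level.

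The number of calls depended on the centring and on the trend with length and level. With the median of genes at a mean value of 1000 or more set to 0, calls over all genes shifted from 44.2% to 64.2% higher. Calls as lower then went from 925 to 640 over all genes and from 13 to 12 among the 33 members. Once the trend with length and level was removed, they went from 925 to 823 and from 13 to 10. Across 7 other choices of threshold, adjustment, centring and trend, between 9 and 17 members were called lower and 0 higher. The 9 came with the Benjamini-Yekutieli adjustment, where 2.79% of all genes were called lower. The 17 came at an adjusted p under 0.1, where 7.30% of all genes were. Cs, Aco1, Idh1, Dlst, Suclg1, Pdha1, Dlat and Pdk1 were called under all 7, while Sdha, Mdh1, Mpc1, Pcx and Pdk4 each lost the call under at least 1.

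Huwe1 itself had a deposited value of 2666 in WT and 1784 in Huwe1_LKO (adjusted p = 0.000425). All 7 listed hepatocyte markers were present and made up 8.97% of all expression in WT and 11.9% in Huwe1_LKO, so their sum stood at 134% of WT in the deposited table. Most of that sum is Alb (log2 fold change 0.45, adjusted p = 0.0631). Apoa1 (0.52) and Hnf4a (0.37) were called higher, while Ttr (0.18), Cps1 (0.26), Asgr1 (-0.04) and Tat (-0.48) did not pass, and the median deposited log2 fold change of the list was 0.26. Of all 50 marker genes found for 9 cell types, the only others called were the neutrophil genes S100a9 and Retnlg, both higher. The neutrophil list summed to 68.8 in WT and 160 in Huwe1_LKO, of which S100a9 alone made 25.6 and 79.1. The other 4 neutrophil genes did not pass. S100a8 (adjusted p = 0.0504), Mpo and Elane had higher values in Huwe1_LKO, and Ly6g had a lower one (7.52 to 5.02, adjusted p = 0.628). None of the 6 cholangiocyte markers was called. Their sum of 902 in WT and 1622 in Huwe1_LKO is mostly Spp1 (722 and 1410), a gene that other cells also express, and the deposited log2 fold changes of Krt7, Krt19, Sox9 and Epcam were -0.56, 0.10, 0.30 and 0.39. The sums of the Kupffer cell, endothelial, stellate, lymphocyte and erythroid lists stood between 92.4% and 120% of WT. Of the muscle markers, Ckm and Myh4 were not listed, and the 2 others summed to under 1 in both groups. The part of these shifts in the results below was not tested, and in whole tissue fewer cells of a type and less RNA per cell cannot be told apart.

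The promoters of the members are shown because many of these genes were called in 1 direction. RefSeq promoter entries (GRCm38) were found for 30 of the 33 genes, including all 13 called ones, and the 250 bases before each start were searched on both strands for 5 motifs. A gene was counted if any of its entries held the motif, and 6 of the 30 members have several entries (40 entries in total). CCAAT, the binding motif of NF-Y, was in 19 of 30 members (63.3%), against 39.8% of the 13190 genes of the table that have an entry. Counted per entry and not per gene, it was in 33.8% of all RefSeq entries. CCAAT was in 7 of the 13 genes called lower and in 12 of the 17 others. The E-box CACGTG, the motif of MYC and of clock factors, was in 4 of 30 members (Ogdh, Pcx, Pdk2 and Pdp2) against 8.95% of the table's genes. The cAMP response element TGACGTCA was in Mdh2 and Ogdh (2.62% of the table's genes), GCGCATGCG, a form of the NRF1 motif, in Ogdh (2.81%), and TCAAGGTCA, the element of estrogen-related receptors, in 0 of 30 (0.356%). In Ogdh the E-box and NRF1 matches lie in other entries than the cAMP response element. In the members' windows 0 matches of different motifs overlapped. Shown here are 3 called members with CCAAT and 1 without any of the 5 motifs, printed 5′ to 3′ on the strand of the gene, ending at the base before the start, with motif letters in capitals (ATTGG is CCAAT on the other strand).

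Cs, chr10:128337477-128337726, plus strand: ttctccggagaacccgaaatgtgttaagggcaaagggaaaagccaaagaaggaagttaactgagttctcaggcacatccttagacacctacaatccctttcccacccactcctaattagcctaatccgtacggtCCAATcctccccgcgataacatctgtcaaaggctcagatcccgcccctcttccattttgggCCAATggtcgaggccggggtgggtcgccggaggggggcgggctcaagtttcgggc
Mdh1, chr11:21571935-21572184, minus strand: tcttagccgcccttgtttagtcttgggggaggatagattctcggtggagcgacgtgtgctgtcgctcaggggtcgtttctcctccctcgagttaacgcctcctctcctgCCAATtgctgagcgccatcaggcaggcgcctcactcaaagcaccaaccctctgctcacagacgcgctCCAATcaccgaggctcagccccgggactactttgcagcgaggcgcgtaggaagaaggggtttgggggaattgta
Pdk4, chr6:5496279-5496528, minus strand: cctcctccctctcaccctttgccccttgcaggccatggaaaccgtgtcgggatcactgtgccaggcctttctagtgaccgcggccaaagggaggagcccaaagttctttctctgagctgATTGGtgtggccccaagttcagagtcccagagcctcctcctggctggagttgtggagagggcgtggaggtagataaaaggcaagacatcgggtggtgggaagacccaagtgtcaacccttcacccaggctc
Dlat, chr9:50659781-50660030, minus strand: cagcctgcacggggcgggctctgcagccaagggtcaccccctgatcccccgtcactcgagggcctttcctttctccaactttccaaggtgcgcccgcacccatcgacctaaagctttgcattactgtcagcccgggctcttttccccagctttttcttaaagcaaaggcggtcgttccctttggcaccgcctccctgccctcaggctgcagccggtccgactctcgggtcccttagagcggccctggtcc

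In Cs, CCAAT begins 116 and 55 bases before the start, in Mdh1 141 and 74 bases before it, and in Pdk4 131 bases before it on the opposite strand. Dlat, the core subunit of the pyruvate dehydrogenase complex, holds none of the 5 motifs in this window, which says only that these letters are not there. The members' windows had a median GC content of 61.4%, against 58.4% for the table's genes. These matches describe sequence and were not tested against the fold changes.

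Pyruvate crosses the inner mitochondrial membrane through a carrier made of MPC1 and MPC2, and only Mpc1 passed the test. Mpc1 (chromosome 17, 8283787 to 8297667 in GRCm38) stood at 4979 in WT and 3582 in Huwe1_LKO by the authors' deposited table, a log2 fold change of -0.47 (SE 0.14, adjusted p = 0.013). Mpc2, the partner subunit, stood at 2155 in WT and 2159 in Huwe1_LKO there, a log2 fold change of 0.0025 (95% interval -0.26 to 0.26). The value of Mpc1 was 72.0% of WT, with an interval from 59.3% to 87.3%. It overlaps the interval of Mpc2, which runs from 83.7% to 120% of WT. A test of the difference between the subunits needs values per liver and was not run. GENCODE's mouse annotation also lists a processed pseudogene of Mpc1, and the sources used here do not say how reads matching both were counted.

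Pcx, the carboxylase that makes oxaloacetate from pyruvate, was lower in Huwe1_LKO. Its deposited value was 8815 in WT and 6184 in Huwe1_LKO, a log2 fold change of -0.51 (SE 0.18, adjusted p = 0.0429). That call was the nearest to the threshold of the 13 and was lost with the 1000 or more centring (adjusted p = 0.104) and once the trend with length and level was removed (adjusted p = 0.127).

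In the pyruvate dehydrogenase complex all 5 genes had values below WT, and 2 of the 5 passed. Dlat (chromosome 9, 50634633 to 50659780), the acetyltransferase core (E2), dropped the most, from 1209 to 664 by the authors' deposited table, a log2 fold change of -0.86 (SE 0.19, adjusted p = 0.000181). Pdha1 (chromosome X, 160122219 to 160138430), the regulated alpha subunit of the decarboxylase (E1), dropped from 1995 to 1400.5 in that table, a log2 fold change of -0.51 (SE 0.13, adjusted p = 0.00254). Pdhb, the beta subunit of the same enzyme, had a nearly equal deposited log2 fold change of -0.51, but a larger SE of 0.19 and an adjusted p of 0.0588. It stood at 1734 in WT and 1214 in Huwe1_LKO. Pdhx, which anchors the E3 enzyme to the core, stood at 455 and 350.1 (log2 fold change -0.38, adjusted p = 0.0619), and Dld, that E3 enzyme, at 1699 and 1340 (log2 fold change -0.34, adjusted p = 0.133) in the deposited table. Pdhb and Pdhx passed when the adjustment was made over genes with a mean value of 10 or more only (adjusted p = 0.0449 and 0.0472). DLD also serves the 2-oxoglutarate and branched-chain dehydrogenases, so its level is not a measure of this complex alone. Summed over the 5 genes, the complex stood at 70.0% of WT.

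The kinases that switch this complex off by phosphorylating E1 held the 2 largest falls of the list. Pdk1 (chromosome 2, 71873215 to 71903858) dropped from 1522 to 663 by the authors' deposited table, a log2 fold change of -1.20 (SE 0.25, adjusted p = 9.75e-05). Pdk4 (chromosome 6, 5483351 to 5496278), the kinase best known for its rise on fasting, dropped from 76.9 to 27.5 in that table, a log2 fold change of -1.48 (SE 0.42, adjusted p = 0.00705). Per kilobase, Pdk4 was the lowest of the 13 called genes. Its interval runs from -2.30 to -0.67, and the Benjamini-Yekutieli adjustment ended its call (adjusted p = 0.0726). Pdk2, per kilobase of gene length the highest of these kinases in WT (1153, against 293 for Pdk1 and 22.3 for Pdk4), had deposited values of 2628 in WT and 2219 in Huwe1_LKO. Its log2 fold change of -0.24 did not pass (adjusted p = 0.246). Pdk3, outside the member list, stood at 4.05 and 5.69 and did not pass (adjusted p = 0.712).

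The phosphatases that reverse this modification did not pass, and both had an unadjusted p above 0.05 in the deposited table. Pdp2 had deposited values of 341 in WT and 309 in Huwe1_LKO (log2 fold change -0.14, 95% interval -0.60 to 0.32). Pdp1 was the lowest member per kilobase (2.59 in WT), with deposited values of 10.7 and 14.3, and its interval from -0.38 to 1.20 allows more than a doubling.

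**Figure D3:**
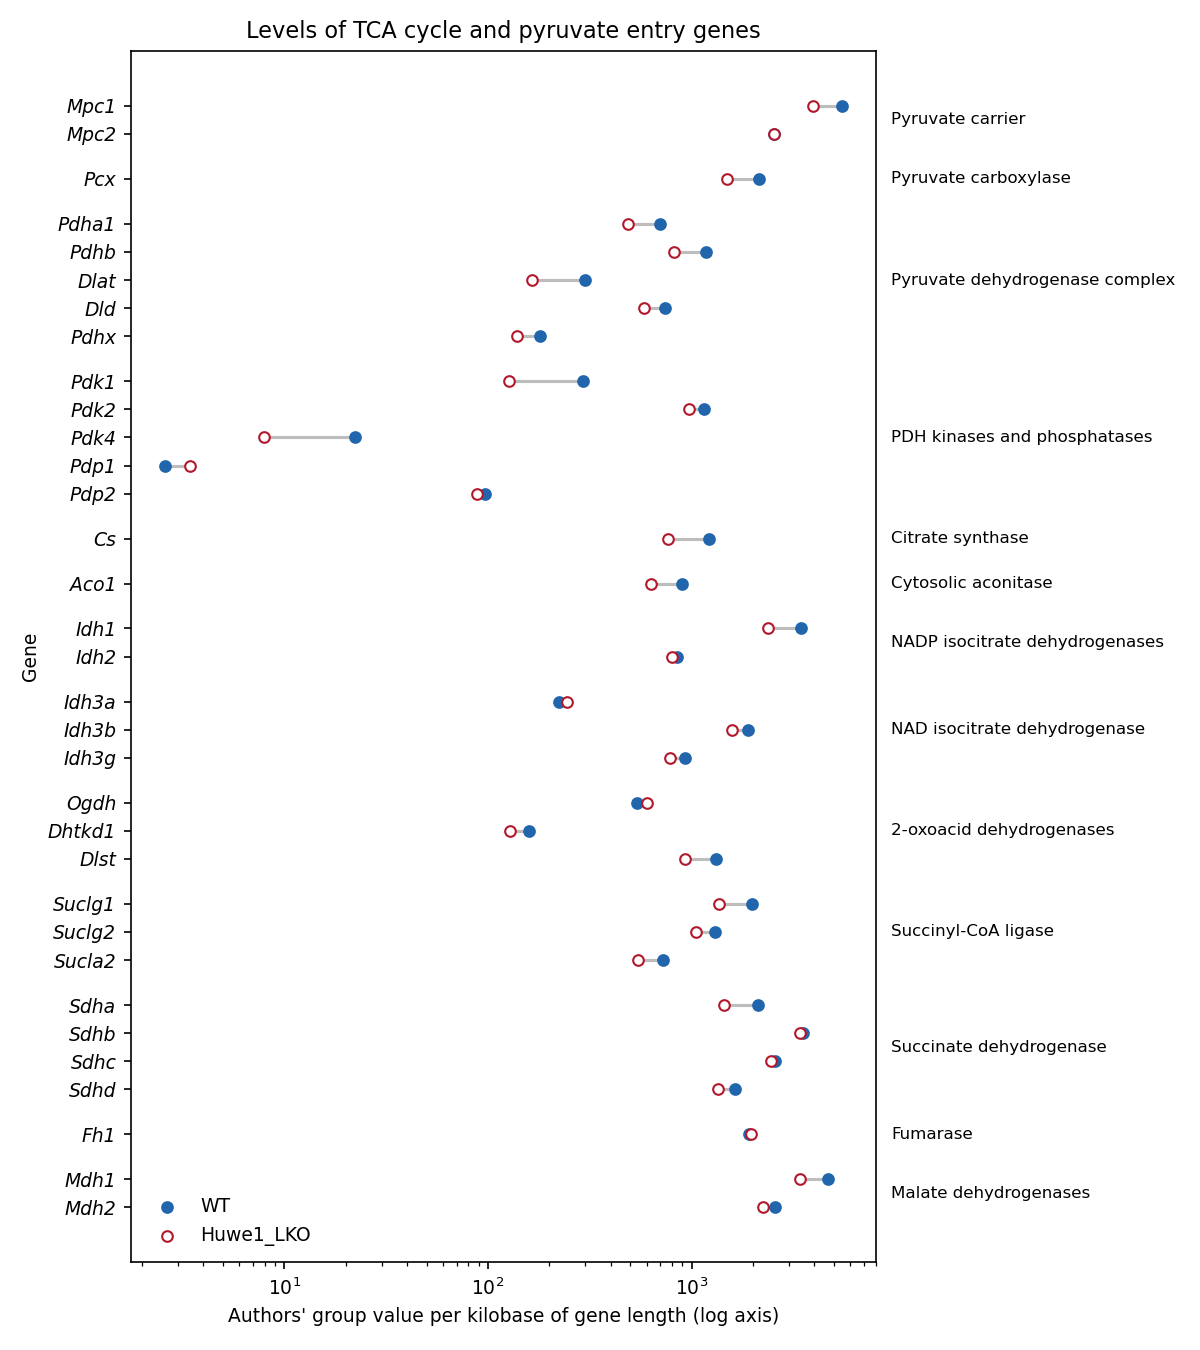
Filled blue points give the WT value and open red points the Huwe1_LKO value of each gene, per kilobase of gene length, on a log axis, in rows by enzyme. Most open points lie left of the filled ones; the pairs for Mpc2, Sdhb, Sdhc and Fh1 nearly coincide, and Pdk4 and Pdp1 lie far below the rest.

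Citrate synthase condenses acetyl-CoA with oxaloacetate, and its gene had the smallest p of the list. The activity of the enzyme is widely used as a measure of mitochondrial content. Only RNA was measured here, and mitochondrial content was not tested. Cs (chromosome 10, 128337727 to 128362482) stood at 3586 in WT and 2262 in Huwe1_LKO by the authors' deposited table, 63.1% of WT, with a log2 fold change of -0.67 (SE 0.11, adjusted p = 3.24e-08). The 95% interval runs from 54.7% to 72.8% of the WT level. The Cs promoter printed with the motif counts holds CCAAT at 2 places. Not every matrix enzyme passed. Fh1, the fumarase gene, stood at 3141 in WT and 3225 in Huwe1_LKO (adjusted p = 0.926), with an interval from 85.7% to 123%, which does not overlap that of Cs. The difference between the 2 genes was not tested.

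The cytosolic enzymes Aco1, Idh1 and Mdh1 all passed the test, while Idh2 and Mdh2, the mitochondrial counterparts of the last 2, did not. Aco1, cytosolic aconitase and, without its iron-sulfur cluster, an iron-regulatory RNA-binding protein, dropped from 3866 to 2711 by the authors' deposited table (log2 fold change -0.51, SE 0.12, adjusted p = 0.000754). Idh1, which makes NADPH in the cytosol, dropped from 7793 to 5349 in the deposited table (log2 fold change -0.54, SE 0.13, adjusted p = 0.00138). Its mitochondrial counterpart Idh2 stood at 1449 and 1367 (log2 fold change -0.08, adjusted p = 0.791).

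Mdh1, the malate dehydrogenase of the cytosol and a part of the malate-aspartate shuttle, was per kilobase the highest member in WT after Mpc1 (4637 against 5489). Its deposited value dropped from 9080 to 6673 by the authors' deposited table (log2 fold change -0.44, SE 0.12, adjusted p = 0.00326). Mdh2, which closes the cycle in the matrix, stood at 3312 and 2887 (log2 fold change -0.20, adjusted p = 0.246), with an interval whose upper end reaches 100.05% of WT. The Mdh1 call was lost once the trend with length and level was removed (adjusted p = 0.0599). Per kilobase, the ratio of cytosolic to mitochondrial form went from 4.07 in WT to 2.96 in Huwe1_LKO for isocitrate dehydrogenase and from 1.82 to 1.53 for malate dehydrogenase. The cytosolic form was lower than its partner in log2 fold change by 0.46 and 0.25 in that order, and these differences were not tested.

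The NAD-dependent isocitrate dehydrogenase of the matrix is built from the catalytic subunit IDH3A with IDH3B and IDH3G, and none of its 3 genes passed in DESeq2's deposited result. Idh3a stood at 536 in WT and 589.8 in Huwe1_LKO (log2 fold change 0.14, adjusted p = 0.677). Idh3b stood at 2879 and 2396 (log2 fold change -0.27, adjusted p = 0.0953) and Idh3g at 1241 and 1044 (log2 fold change -0.25, adjusted p = 0.0929), both with an unadjusted p under 0.05 in the deposited table. The catalytic subunit was also the lowest of the 3 per kilobase, at 222 in WT against 929 for Idh3g and 1894 for Idh3b.

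The 2-oxoglutarate dehydrogenase complex was uneven. Dlst (chromosome 12, 85110822 to 85134091), its succinyltransferase core, dropped from 3623 to 2575 by the authors' deposited table (log2 fold change -0.49, SE 0.12, adjusted p = 0.00162). Ogdh, the decarboxylase that starts the reaction, stood at 3577 in WT and 3993 in Huwe1_LKO (log2 fold change 0.16, 95% interval -0.05 to 0.37, adjusted p = 0.464). The intervals of Dlst (-0.73 to -0.25) and Ogdh do not overlap, and the difference itself was not tested. Dhtkd1, a related decarboxylase of lysine breakdown that uses the same core, stood at 562 and 455 (log2 fold change -0.30, adjusted p = 0.322) in the deposited table.

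Succinyl-CoA ligase joins a common alpha subunit with either of 2 beta subunits. Suclg1 (chromosome 6, 73248505 to 73276907), the common subunit, dropped from 2776 to 1921 by the authors' deposited table (log2 fold change -0.53, SE 0.13, adjusted p = 0.000944). The GTP-forming beta subunit Suclg2 stood at 4465 and 3629 (log2 fold change -0.30, adjusted p = 0.111), and the ATP-forming beta subunit Sucla2 at 1528 and 1153 (log2 fold change -0.41, adjusted p = 0.162). All 3 values lay below 0, and only the common subunit passed.

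Succinate dehydrogenase is complex II of the respiratory chain as well as a cycle enzyme, and 1 of its 4 genes passed. Sdha (chromosome 13, 74322255 to 74350240), the flavoprotein that oxidizes succinate, dropped from 6057 to 4137 by the authors' deposited table (log2 fold change -0.55, SE 0.16, adjusted p = 0.0127). The iron-sulfur subunit Sdhb stood at 3859 in WT and 3702 in Huwe1_LKO (log2 fold change -0.06, adjusted p = 0.847) and the membrane anchor Sdhc at 3018 and 2877 (log2 fold change -0.07, adjusted p = 0.847). Sdhd, the other anchor, stood at 2106 and 1736 (log2 fold change -0.28, adjusted p = 0.429). Once the trend with length and level was removed, Sdha stood at a log2 fold change of -0.43 and lost its call (adjusted p = 0.08), while Sdhb and Sdhc stood at 0.011 and 0.0024.

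By enzyme, summed levels in Huwe1_LKO ran from 63.1% of WT for citrate synthase to 103% for fumarase. The pyruvate dehydrogenase complex (70.0%), cytosolic aconitase (70.1%), pyruvate carboxylase (70.2%), the kinases and phosphatases (70.6%) and the NADP-dependent isocitrate dehydrogenases (72.7%) followed citrate synthase. Succinyl-CoA ligase stood at 76.5%, the malate dehydrogenases at 77.1%, the pyruvate carrier at 80.5%, succinate dehydrogenase at 82.8%, NAD-dependent isocitrate dehydrogenase at 86.6% and the 2-oxoacid dehydrogenases at 90.5%. Of the 13 genes of pyruvate entry 6 were called lower, with a median log2 fold change of -0.47 in the deposited table, and of the 20 genes of the cycle 7 were, with a median of -0.29. The sums by enzyme are authors' group values, not divided by gene length, and carry no test.

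**Figure D4:**
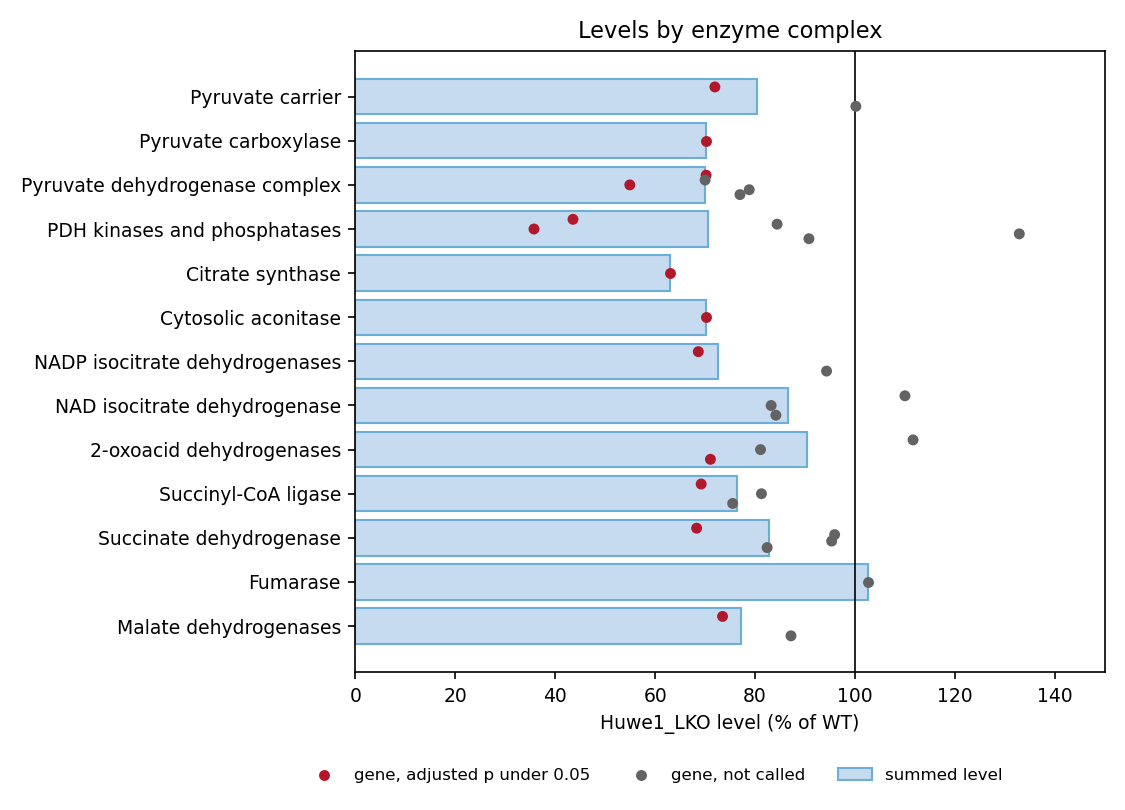
Bars give the summed Huwe1_LKO level of each enzyme or complex as a percent of its WT sum, points give its single genes, and the line marks 100%. Red points passed the test, all of them as lower, so a place left of the other subunits follows largely from the call itself. Sdha (68.3%) sits left of Sdhb (95.9%) and Sdhc (95.3%), while Pdhb (70.0%), which did not pass, sits just left of Pdha1 (70.2%), which did.

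Genes next to the cycle moved mostly down. Of 53 further genes of carriers, anaplerosis, cofactor supply and assembly, 52 were found in the deposited table of the authors, 15 were called lower and 3 higher, and the median log2 fold change was -0.28. The 15 make 28.8% of the 52, where 5.56% of all genes and 15.5% of those with a mean value of 1000 or more were called lower, and 4.41% of all genes were called higher. The 3 of 52 called higher are close to that last share. Genes of citrate export and of its use in the cytosol were among those that fell. The citrate carrier Slc25a1 went from 6090 to 3604, ATP citrate lyase (Acly) from 7564 to 3385, and malic enzyme (Me1), which turns malate back into pyruvate, from 9230 to 1317 in the deposited table. Acss2, which makes acetyl-CoA from acetate, changed by -1.61 on the log2 scale of the deposited table, and Pklr, the liver pyruvate kinase, by -1.05. Among carriers and transaminases, the dicarboxylate carrier Slc25a10 (-0.89), Gpt2 (-0.91), which interconverts alanine and pyruvate, and Got2 (-0.50), the matrix partner of the malate-aspartate shuttle, fell as deposited log2 fold changes. The other listed aminotransferases and SLC25 carriers did not pass: Got1 (-0.51, adjusted p = 0.179), Gpt (-0.16, adjusted p = 0.586), Slc25a11 (-0.32, adjusted p = 0.1), Slc25a12 (-0.28, adjusted p = 0.412) and Slc25a13 (-0.34, adjusted p = 0.289), with deposited log2 fold changes.

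Some of the genes that serve the enzymes above also fell. Lias makes the lipoyl cofactor carried by DLAT and DLST and went from 470 to 357 by the authors' deposited table (adjusted p = 0.0127). Sdhaf4, an assembly factor that binds SDHA, went from 150.3 to 109 (adjusted p = 0.0278), while Sdhaf1, Sdhaf2 and Sdhaf3 did not pass. The mitochondrial desuccinylase Sirt5 (-0.49), the dehydrogenase D2hgdh (-0.47), which oxidizes D-2-hydroxyglutarate, the branched-chain dehydrogenase subunit Bckdha (-0.27) and aspartoacylase (Aspa, -0.63) were also among the 15, as deposited log2 fold changes. The 3 genes that rose were the plasma membrane citrate transporter Slc13a5 (19.1 to 263), the lactate dehydrogenase subunit Ldhb (39.3 to 167) and the mitochondrial phosphoenolpyruvate carboxykinase Pck2 (44.1 in WT and 215% of that in Huwe1_LKO) in the deposited table. All 3 were low in WT. Ldha, the main lactate dehydrogenase subunit of liver, stood at 10900 and 9772 and did not pass (adjusted p = 0.53), nor did Pck1, at 28783 and 38863 (adjusted p = 0.365).

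Of 14 regulators of mitochondrial and pyruvate metabolism genes, 1 passed by the authors' deposited table (7.14%, against 9.97% of all genes), a share near the background. Esrrg, an estrogen-related receptor, dropped from 56.6 to 22.7 (log2 fold change -1.32, adjusted p = 0.014). Esrra (0.22, adjusted p = 0.332), the coactivator Ppargc1a (0.18, adjusted p = 0.847), Ppara (-0.26, adjusted p = 0.389), Hif1a (0.03, adjusted p = 0.965), Foxo1 (0.50, adjusted p = 0.102) and Myc (0.84, adjusted p = 0.406) did not pass, as deposited log2 fold changes. The median over the 14 was 0.14, and 10 of them lay above 0. RNA levels of these regulators are not a measure of their activity.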

How the data were processed

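Liver RNA of 4 WT and 4 Huwe1_LKO mice, grouped by sample title, was sequenced by BGI Genomics, per the labels' protocols. The submitters' processing notes name mm10 as the genome and DESeq2 as a tool. Which aligner, counter and versions were used was not given in the sources used here. From these reads the authors deposited a normalized expression signal, 1 value per gene and group, with a log2 fold change and unadjusted and adjusted p-values, per the file headers. Whole-group sums of the deposited signal were 17347900 and 17533100, and read depth per liver is unknown. Benjamini-Hochberg values recomputed for all 16640 genes differ from the adjusted p-value column by at most 1.74e-06. The 707 genes with the lowest values have deposited log2 fold changes of 0.11 to 0.12 in size, so their folds appear shrunken toward 0, which no source used here states. The deposited log2 fold change equals the log2 ratio of the group values to within 4.71e-08. Any shrinkage would therefore also be in the levels, sums and percents of WT given here. Whether the p-values belong to the same folds is not stated, and the implied SEs and intervals assume that they do. Nothing in the labels says more of how the livers were sampled, and the p-values measure only the spread between these samples.

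The planned count model needs values per liver and was not run, so calls are the authors'. SEs were computed as the log2 fold change over the normal score of its p, assuming a Wald test. The calculation returned the SEs of data simulated under that same assumption, which checks the arithmetic and not the assumption. All members were named, and of the other pathway genes and regulators the called ones, with some others chosen after their values were seen. Some of these genes are not reported here. Members and lists were chosen with earlier results of these data known. Coordinates, matched by Entrez ID, come from RefSeq's GRCm38 table (the mm10 assembly). Levels between genes were compared per kilobase of listed length, while sums by enzyme used the values as deposited. Python 3.11.15, pandas 2.3.3 and scipy 1.17.1 were used. Alternatives were other thresholds and adjustments, 2 centrings, and subtraction of the median of genes in the same of 5 length and 10 level classes.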

Additional observations from a re-analysis of the deposited data

How the results depend on the processing

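Members called lower numbered 13 as deposited, 10 at an adjusted p under 0.01, 17 at 0.1, 15 with the adjustment over genes with a mean value of 10 or more, 9 with the Benjamini-Yekutieli adjustment, 13 and 12 with the centrings at 10 and at 1000 or more, and 10 with the length and level trend removed; 0 were called higher in any of these. In the same order, 5.56%, 3.37%, 7.30%, 6.05%, 2.79%, 5.89%, 3.85% and 4.95% of all genes were called lower. Over all genes, calls fell from 925 lower to 465 with Benjamini-Yekutieli and 561 at 0.01, and rose to 1149 higher with the centring at 1000 or more. Members that changed sign lay near 0 throughout: Mpc2 (-0.0076, centred at 10 or more), Sdhb and Sdhc (0.018 and 0.0092, centred at 1000 or more), and Idh2, Sdhb and Sdhc (0.038, 0.011 and 0.0024, trend removed), as log2 fold changes. Summed levels per kilobase left each enzyme on its side of the WT level, with 76.6% for the kinases and phosphatases, 82.8% for the 2-oxoacid dehydrogenases and 87.6% for succinate dehydrogenase. The order of the enzymes changed, since the 2-oxoacid dehydrogenases then stood below NAD-dependent isocitrate dehydrogenase (85.5%) and succinate dehydrogenase. No paired analysis was possible because the table used here holds 1 value per gene and group, and for the same reason no liver was left out in turn. Read depth per liver is unknown. The implied SEs were largest for Pdk4 (0.42) and Pdp1 (0.40), the members with the lowest WT levels per kilobase.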
